A study of Mus musculus with 16 samples.

Results

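The 10 genes described here encode the NF-κB transcription factor subunits (Nfkb1, Nfkb2, Rela, Relb and Rel), their nuclear partner Bcl3, and the IKK family that switches them on (Chuk, Ikbkb, Ikbkg and Ikbke). They were picked by symbol from the 54532 genes measured, and all 10 passed the filter on low values in both experiments. Bulk RNA-seq was performed on pulmonary ECs, which were isolated from digested lungs by bead depletion of CD45+ cells and bead selection for CD31, and RNA was harvested 24 h after intratracheal treatment. In the first experiment, male WT C57/BL6J mice of 8 weeks received saline (n = 4) or LPS at 10 mg/kg (n = 6). LPS (lipopolysaccharide, from the wall of Gram-negative bacteria) serves as a model of acute lung injury. In the second experiment, Fgfr1 iΔEC/iΔEC mice (n = 3) and their Fgfr1 loxP/loxP littermates (n = 3) all received LPS at 2 mg/kg. The Fgfr1 iΔEC/iΔEC mice carry floxed alleles of Fgfr1, a receptor for fibroblast growth factors, and VE-cadherin-CreERT2, a Cre driven by the promoter of an EC gene that tamoxifen turns on. Both genotypes received tamoxifen by intraperitoneal injection, and their age in weeks is not given in the sources used here. The depth, as reads on genes, was 13478726 to 18807007 per saline library, 17840221 to 19043015 per LPS library, 15969575 to 17002788 per Fgfr1 loxP/loxP library and 16642177 to 16943522 per Fgfr1 iΔEC/iΔEC library. Nothing in the labels says whether each library came from its own mouse, so the p-values measure the spread between these libraries.

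NF-κB works as dimers of its subunits. In the canonical pathway, a receptor such as the LPS receptor TLR4 activates a kinase complex of Ikbkb (IKKβ), Chuk (IKKα) and the scaffold Ikbkg (NEMO), which marks the inhibitory IκB proteins for destruction and frees dimers such as p50 and RelA. In the noncanonical pathway, the kinase NIK, encoded by Map3k14, acts through IKKα on p100, the product of Nfkb2, whose cleavage frees p52 and RelB. Ikbke (IKKε) is a relative of Tbk1 that acts in interferon induction, and Bcl3 is an IκB-like protein that binds p50 or p52 in the nucleus. In ECs, NF-κB is known for driving adhesion molecules and chemokines, and several of its own pathway genes are among its targets.

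The κB site is the short DNA element that NF-κB binds, and the RefSeq promoter windows of the members were searched for its named 10-letter consensus on both strands. The 250 bases before a start site (GRCm38.p6) held a match in 2 of the 7 members that have a window, Nfkb2 and Rel. Over all genes with a window, 8.23% had a match. The windows of Rela, Bcl3, Ikbke, Chuk and Ikbkg held no match to these letters, and Nfkb1, Relb and Ikbkb were not searched. The matched stretches are shown because Nfkb2 and Rel, the only members with a match, differ in their values under LPS. Each is 30 bases, 5′ to 3′ on the strand of the gene, and capitals mark the matched letters, where overlapping matches are joined. The first pair of Nfkb2 stretches lies at chr19:46304689-46304718 and chr19:46304707-46304736, before the start of the gene in the files, and the others lie before its inner start sites, at chr19:46305449-46305478 and chr19:46305695-46305724. The Rel stretch lies at chr11:23771041-23771070 on the minus strand.
Nfkb2, 48 to 19 bases before the start: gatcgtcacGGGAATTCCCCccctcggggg
Nfkb2, 30 to 1 bases before the start: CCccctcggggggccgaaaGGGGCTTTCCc
Nfkb2, inner start at 46305695: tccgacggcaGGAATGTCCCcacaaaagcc
Nfkb2, inner start at 46305930: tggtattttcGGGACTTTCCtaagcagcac
Rel, 101 to 72 bases before the start: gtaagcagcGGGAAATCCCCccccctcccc

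To examine whether LPS changed the subunits and kinases themselves, the LPS group was compared with the saline group. Nfkb2, Relb, Bcl3 and Ikbke were higher in every LPS library than in every saline library, Nfkb1 was higher by less, and Rela, Rel, Ikbkb, Chuk and Ikbkg did not pass the test. Calls were made by limma on log2(FPKM + 1) over the 14893 genes whose mean reached 0.5 FPKM, with a threshold of 0.05 after Benjamini-Hochberg adjustment over all of them. FPKM divides the fragments on a gene by gene length and library size, and fold changes are on the log2(FPKM + 1) scale, which understates the change of low genes. Of the 10 members, 5 were called higher and 0 lower. Of all genes tested, 29.5% were called higher and 23.7% lower, so calls were common in the whole table. The balance of directions and the count of members rest on the scaling, with 3462 genes higher, 4668 lower and 4 members higher on total reads, and 7472 higher, 735 lower and 9 members higher on the endothelial marker list. With a log2 fold change of at least 1 as well, 4 of the 10 members were called higher, against 11.9% of all genes. The 4 members whose groups did not overlap compare with 22.7% of all genes for which every LPS library was above every saline library. The median log2 fold change was 0.37 over the members and 0.013 over all genes tested. In bulk samples, fewer cells of a type and less RNA per cell cannot be told apart.

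**Figure D1:**
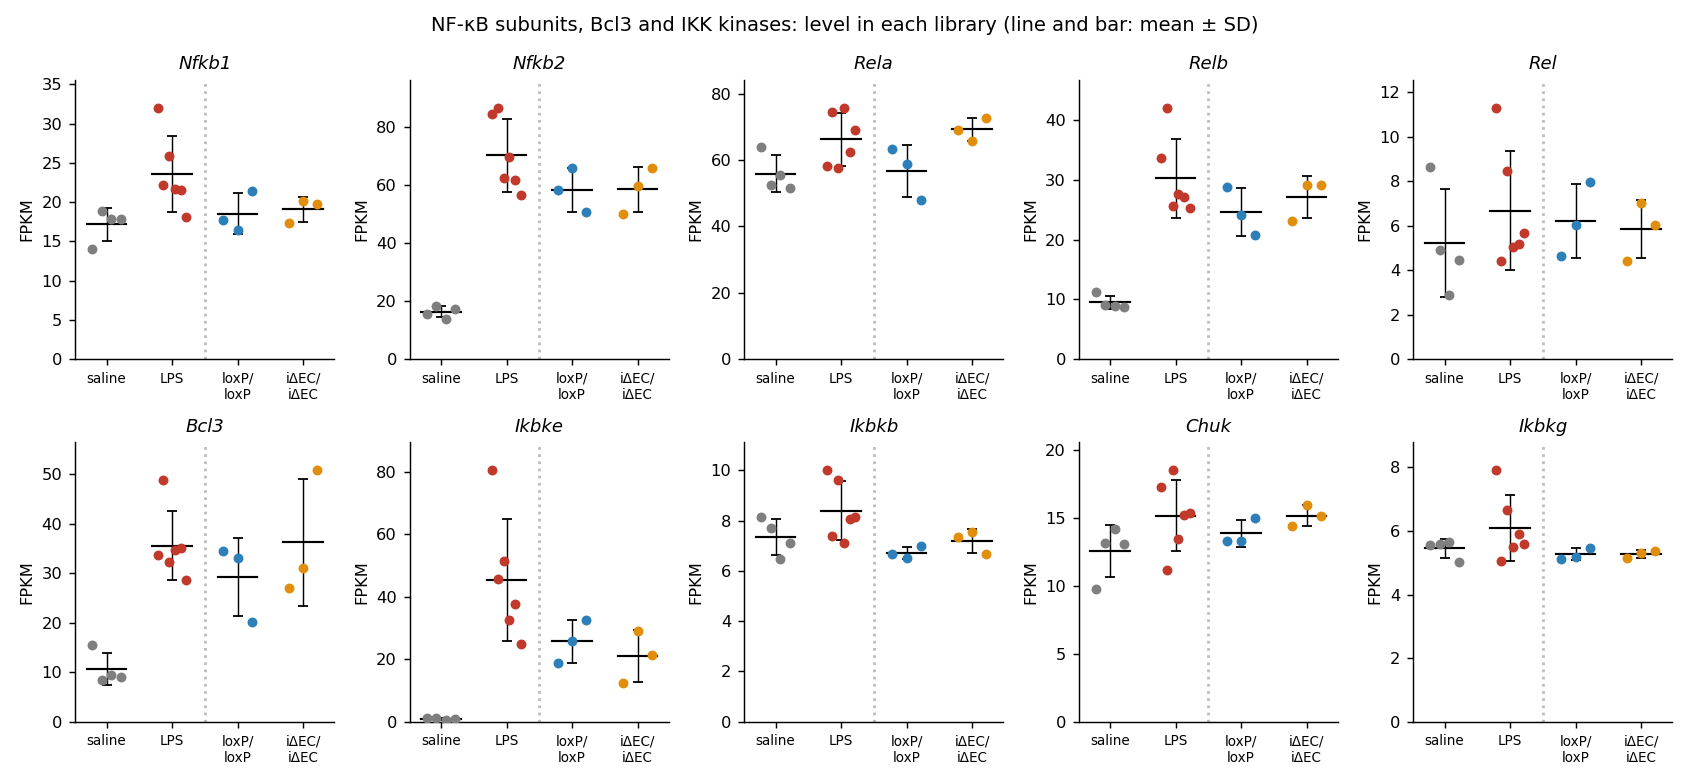
Level of each of the 10 genes in FPKM (vertical axis, linear from 0) in every library of the saline, LPS, Fgfr1 loxP/loxP and Fgfr1 iΔEC/iΔEC groups; points are libraries, the horizontal line is the mean and the bar the SD, and the dotted line separates the experiments, whose tables were normalised separately. Nfkb2, Relb, Bcl3 and Ikbke of the LPS libraries sit above all saline libraries, while these groups overlap for the other 6 genes.

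Among the subunits, Nfkb2, which encodes the p100 precursor of p52 (chromosome 19, 46304737 to 46312090, plus strand), rose the most. Its level was 15.5, 18.2, 13.9 and 17.3 FPKM in saline libraries 1 to 4, and in the LPS group it ran from 56.6 over a median of 66.0 to 86.6 FPKM. All 6 LPS libraries were at least 3-fold above the highest saline library. The means were 16.2 ± 1.93 (SD, n = 4) and 70.2 ± 12.5 FPKM (SD, n = 6), and the log2 fold change was 2.03 (SE 0.15, limma adjusted p = 2.2e-06).

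Relb encodes the usual partner of p52 (chromosome 7, 19606217 to 19629438, minus strand). Relb stood at 11.2, 9.10, 8.94 and 8.74 FPKM in saline libraries 1 to 4 and at 25.3 to 42.1 FPKM in the LPS group, with a median of 27.4. The groups did not overlap, and LPS library 2 was the highest. The log2 fold change was 1.56 (SE 0.15, limma adjusted p = 1.66e-05). Both genes of the p52 and RelB pair were thus higher in all 6 LPS libraries.

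Nfkb1 encodes p105, the precursor of p50 (chromosome 3, 135584655 to 135691547, minus strand). Its saline values were 14.1, 18.9, 17.8 and 17.9 FPKM, and its LPS values ran from 18.1 over 21.9 to 32.0 FPKM. The groups overlapped, since LPS library 6 lay below saline library 2, and LPS library 1 was the highest. The log2 fold change was 0.42 (SE 0.15, limma adjusted p = 0.0358), and this call was lost when any of saline library 1, 3 or 4 or LPS library 1, 3 or 5 was left out (adjusted p of 0.0505 to 0.0901). It was also lost when the values were scaled on total reads, with a log2 fold change of 0.23 and an adjusted p of 0.278, while scaling on the endothelial marker list gave 1.15 (limma adjusted p = 0.00736).

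Rela, which encodes the transactivating p65 subunit (chromosome 19, 5637483 to 5648130, plus strand), had the highest FPKM of the members in the saline group. Rela stood at 63.9, 52.5, 55.3 and 51.7 FPKM in the saline libraries and at 57.6 to 75.8 FPKM in the LPS libraries, with a median of 65.8. The groups overlapped, and the log2 fold change of 0.24 (SE 0.12) did not pass the test (limma adjusted p = 0.124). Under quantile normalization its sign turned and it was called lower, at -0.27 on the log2 scale (limma adjusted p = 0.0441), while under scaling on the endothelial marker list it was called higher, at 0.99 (limma adjusted p = 0.000957).

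Rel encodes c-Rel, a subunit best known in lymphoid and myeloid cells (chromosome 11, 23736847 to 23770970, minus strand). It was the lowest subunit by FPKM in both groups. Rel measured 8.65, 4.89, 2.90 and 4.45 FPKM in the saline libraries and 4.39 to 11.3 FPKM in the LPS libraries, with a median of 5.42. Saline library 1 was above 5 of the 6 LPS libraries. The log2 fold change was 0.32 (SE 0.28, limma adjusted p = 0.354). Rel thus differed by about its own standard error. Its window holds a κB consensus, as that of Nfkb2 does, and the relation between the consensus and the response to LPS was not tested.

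Bcl3 (chromosome 7, 19808462 to 19822770, minus strand) moved with Nfkb2 and Relb. It was measured at 15.4, 8.38, 9.43 and 9.11 FPKM in the saline libraries and at 28.7 to 48.9 FPKM in the LPS group, with a median of 34.3. Saline library 1 was the highest of its group and LPS library 2 the highest of all, and the groups did not overlap. The log2 fold change was 1.68 (SE 0.18, limma adjusted p = 3.2e-05).

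Among the kinases, Ikbke (chromosome 1, 131254343 to 131279606, minus strand) had the largest rise of the 10 genes. It was low in the saline group, at 1.11, 1.10, 0.459 and 0.992 FPKM from 74 to 219 reads, and it ran from 25.1 over 41.7 to 80.5 FPKM in the LPS group, from 4303 to 13364 reads. Every LPS library was far above every saline library, and within the LPS group library 1 was the highest and library 6 the lowest. The ratio of the group means was 49.7, and the log2 fold change was 4.52 (SE 0.27, limma adjusted p = 8.63e-07). In the order of levels Ikbke went from the lowest of the 10 members in the saline group to the third by mean in the LPS group, though it was above the next gene, Bcl3, in only 3 of 6 libraries.

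None of the 3 genes of the canonical IKK complex passed the test. Ikbkb, the main kinase for IκBα (chromosome 8, 22659212 to 22706589, minus strand), stood at 8.14, 7.69, 6.47 and 7.12 FPKM in the saline libraries and at 7.10 to 9.99 FPKM in the LPS libraries, with a median of 8.11. Chuk, the kinase shared with the noncanonical pathway (chromosome 19, 44073335 to 44107480, minus strand), stood at 9.76, 13.2, 14.2 and 13.1 FPKM in the saline libraries and at 11.2 to 18.5 FPKM in the LPS libraries, with a median of 15.3. Ikbkg, the scaffold (chromosome X, 74393290 to 74453854, plus strand), stood at 5.56, 5.60, 5.65 and 5.01 FPKM in the saline libraries and at 5.05 to 7.90 FPKM in the LPS libraries, with a median of 5.74. The groups overlapped for all 3 genes. The log2 fold changes were 0.16 (SE 0.12) for Ikbkb, 0.25 (SE 0.15) for Chuk and 0.13 (SE 0.12) for Ikbkg, with limma adjusted p of 0.26, 0.178 and 0.389. Scaled on total reads, Ikbkb and Ikbkg came to -0.016 and -0.046, and scaled on the endothelial marker list all 3 were called higher, at 0.84 for Ikbkb, 0.96 for Chuk and 0.78 for Ikbkg (limma adjusted p of 0.0172, 0.0115 and 0.0278), so their calls rest on the scaling.

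In GENCODE M21, exons of other genes on the opposite strand cover part of the exons of some members. They cover 11.6% (a noncoding RNA gene annotated to a bidirectional promoter) and 6.52% (Psd) of the exonic bases of Nfkb2. For Bcl3 the share is 6.51% (Gm16175), and for Ikbkg it is 5.15% (G6pdx). For Ikbke the shares are 1.76% (Gm28914) and 0.72% (Gm28913). For Nfkb2 this model is not the one counted, since it has 4584 exonic bases and the deposited length is 3289, so its shares may differ in the files. Whether the counting used the strand is not given in the sources used here, and without strand the reads of such partners cannot be told apart.

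**Figure D2:**
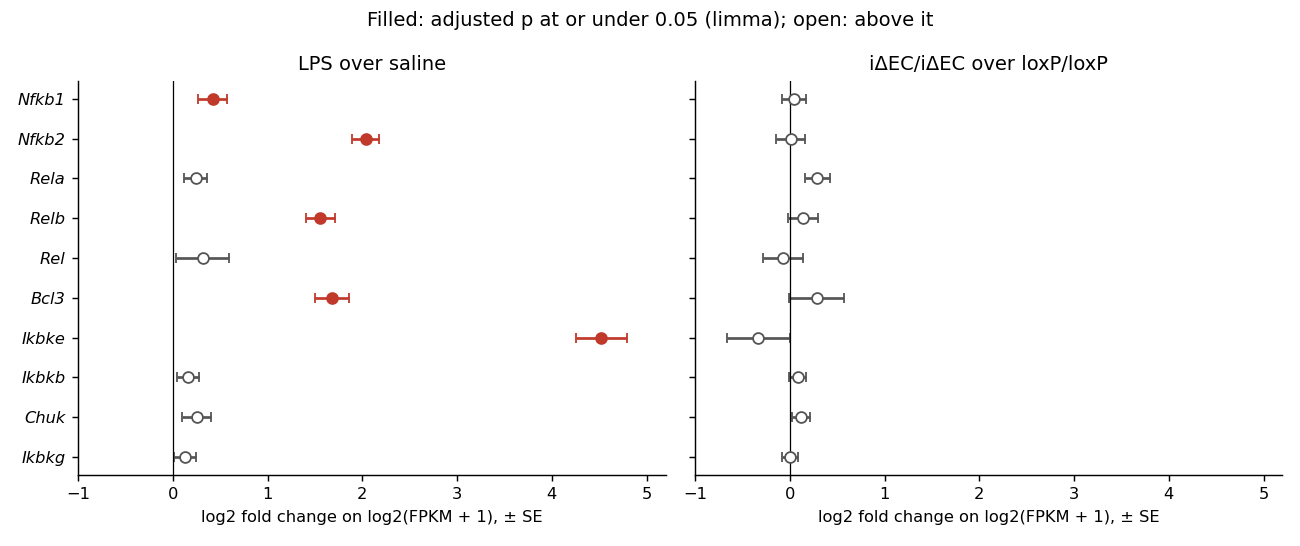
Log2 fold change on the log2(FPKM + 1) scale with its standard error (horizontal axis) for the 10 genes, in the LPS over the saline group (left) and in Fgfr1 iΔEC/iΔEC over Fgfr1 loxP/loxP mice (right); filled points have a limma adjusted p at or under 0.05. Ikbke at 4.52 and Nfkb2 at 2.03 lie farthest to the right in the left panel, and no point is filled in the right panel.

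Since the members differed in size and in fold change, their make-up within a library was described next, a measure that does not depend on how libraries are scaled. It does depend on the deposited gene lengths, which are 2716 bases for Rela, 3289 for Nfkb2 and 12061 for Nfkb1. With other lengths the shares would differ. Of the summed FPKM of the 5 subunit genes, Rela held 53.7% ± 2.93 (SD, n = 4) in the saline group and 33.9% ± 4.68 (SD, n = 6) in the LPS group. The share of Nfkb2 was 15.7% ± 2.09 in the saline group and 35.4% ± 2.22 in the LPS group, and that of Relb was 9.10% ± 0.522 and 15.2% ± 1.62. Nfkb1 held 16.6% ± 2.80 and 12.0% ± 2.11, and Rel 4.93% ± 1.96 and 3.41% ± 1.27. The subunits summed to 104 ± 6.54 FPKM in the saline group and 197 ± 23.3 FPKM in the LPS group. By FPKM with these lengths, the make-up therefore moved from mostly Rela to nearly equal shares of Nfkb2 and Rela.

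The kinase class changed more, mostly through Ikbke. Ikbke held 3.50% ± 1.23 (SD, n = 4) of the summed FPKM of the 4 IKK genes in the saline group and 58.9% ± 8.29 (SD, n = 6) in the LPS group. Chuk held 47.6% ± 5.68 and 21.1% ± 4.96, Ikbkb 28.1% ± 3.73 and 11.6% ± 2.10, and Ikbkg 20.8% ± 1.46 and 8.38% ± 1.34. Shares of a sum constrain each other, so the lower shares of Chuk, Ikbkb and Ikbkg do not stand for lower levels of these genes.

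**Figure D3:**
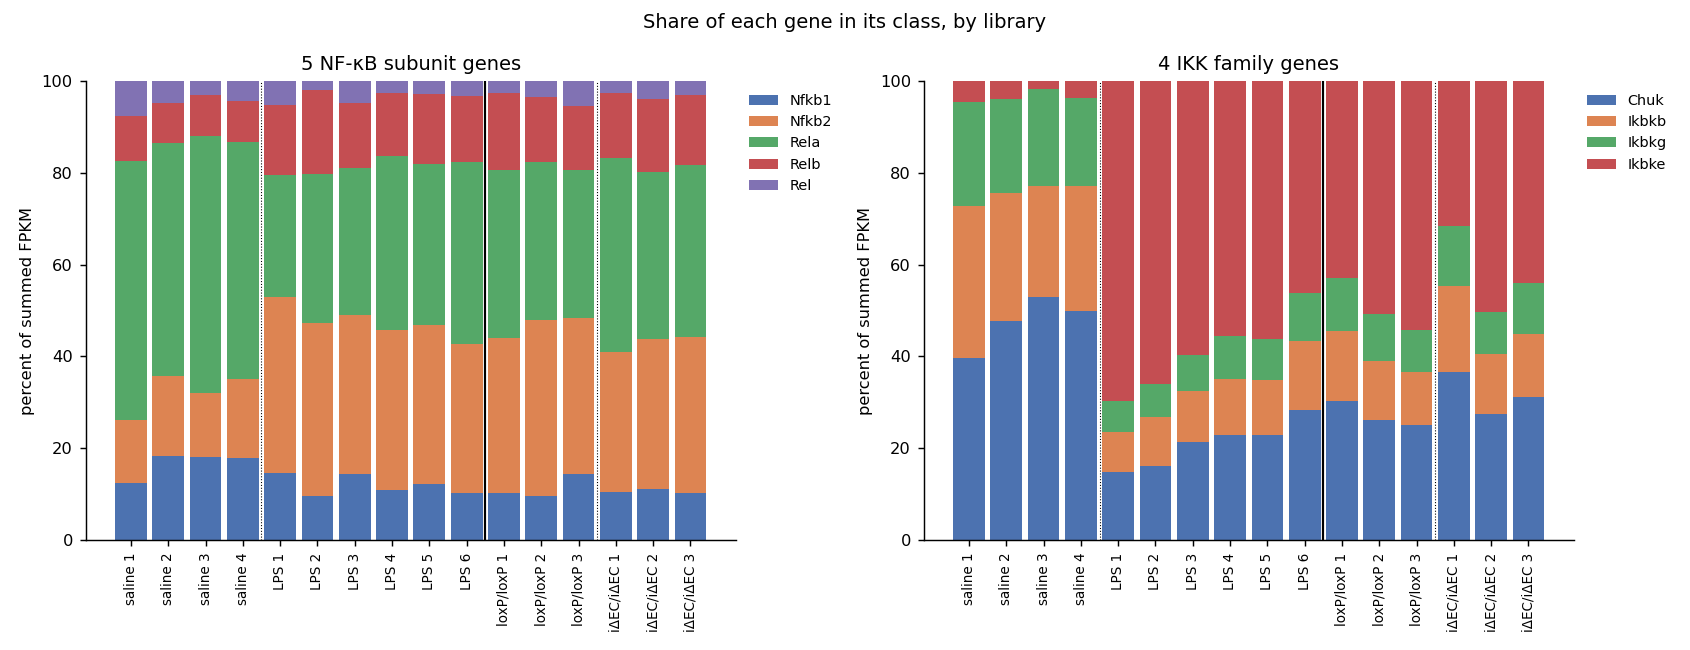
Share of each gene in the summed FPKM of the 5 subunit genes (left) and of the 4 IKK genes (right), in percent, for each of the 16 libraries; dotted lines separate groups and the solid line the experiments. Nfkb2 takes 32.4 to 38.4% of the subunit sum in the LPS libraries against 13.7 to 17.6% in the saline libraries, and Ikbke takes 46.2 to 69.6% of the kinase sum against 1.72 to 4.54%.

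Partner genes were then set against each other within each library by 7 log2 ratios, which were tested by a two-sided exact permutation test with Benjamini-Hochberg adjustment over the 7. For 4 against 6 libraries the smallest p is 0.00952. Nfkb2 to Nfkb1, the precursors of p52 and p50, went from a ratio of 0.947 in the saline group to 2.99 in the LPS group, a difference of 1.66 on the log2 scale (exact p = 0.00952, adjusted p = 0.0222). Relb to Rela went from 0.17 to 0.451, a difference of 1.41 with the same p-values, and Ikbke to Tbk1, its closest relative, from 0.0336 to 1.32, a difference of 5.30 with the same p-values. For these 3 ratios the groups did not overlap. Without saline library 2, 3 or 4 they stayed apart, at the smallest exact permutation p that 3 against 6 libraries allow, 0.0238. This p adjusts to 0.0556 where 3 of the 7 ratios reach it, so the calls were lost. Without saline library 1, where 5 ratios reach it, the same p adjusts to 0.0333. Bcl3 to Nfkb1 differed by 1.33 (exact permutation p = 0.019, adjusted p = 0.0333), though saline library 1, at a ratio of 1.10, lay above LPS library 1 at 1.05. This call was lost in 8 of the 10 cases in which a library was left out, at an adjusted p of up to 0.0833, and it held without saline library 1 or LPS library 1.

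Other ratios did not pass the test. Ikbkb to Chuk, the 2 catalytic subunits of the canonical complex, differed by -0.085 (exact permutation p = 0.629, adjusted p = 0.733), and Rel to Rela by 0.14 (exact permutation p = 0.762). Nfkbia to Rela, the main inhibitor against its main client, differed by 1.16 (exact permutation p = 0.0571, adjusted p = 0.08). Saline library 1 had a ratio of 10.8, among LPS values of 6.74 to 11.4, while the other saline libraries lay at 2.44 to 2.80. Without saline library 1 the difference was 1.67 (exact permutation, adjusted p = 0.0333).

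The order of the levels by FPKM also differed between the groups. This order depends on the deposited gene lengths, which run from 2475 bases for Bcl3 to 19078 bases for Ikbkb. With other lengths the order of genes within a group could differ. The same length divides a gene in both groups, so it does not enter the ratio of its FPKM between them. In the saline group Rela (55.9 ± 5.60 FPKM, SD, n = 4) led and did not overlap with the next gene. Nfkb1, Nfkb2, Chuk, Bcl3 and Relb followed at means of 17.2, 16.2, 12.6, 10.6 and 9.48 FPKM, and neighbours among them overlapped. Ikbkb came next at 7.35 FPKM, then Ikbkg at 5.46 and Rel at 5.22 FPKM with overlapping ranges, and Ikbke was the lowest at 0.916 FPKM. In the LPS group Nfkb2 (70.2 FPKM) and Rela (66.3 FPKM) led, with Nfkb2 above Rela in 3 of 6 libraries, so their order was not settled. Ikbke (45.5), Bcl3 (35.6), Relb (30.2) and Nfkb1 (23.6 FPKM) followed with overlapping neighbours, then Chuk (15.2), Ikbkb (8.38), Rel (6.68) and Ikbkg (6.10 FPKM).

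The rest of the pathway was described with lists of its other genes. All 5 IκB genes, which encode the inhibitors of NF-κB and their nuclear relatives, were called higher, beside 29.5% of all genes. Nfkbid rose by 2.15 (SE 0.33, limma adjusted p = 0.000326), Nfkbie by 2.10 (SE 0.19) and Nfkbiz, the nuclear IκBζ, by 2.10 (SE 0.42) on the log2 scale. Nfkbia, which encodes IκBα, rose by 1.39 (SE 0.42, limma adjusted p = 0.0167), with saline library 1 at 693 FPKM, the other saline libraries at 132 to 147 FPKM and the LPS libraries at 459 to 689 FPKM. The Nfkbia call was lost without saline library 2, 3 or 4 (limma adjusted p of 0.0544 to 0.0581). The fifth, Nfkbib, named here after its value was seen, rose by 1.61. The median over the list was 2.10.

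Of the 10 upstream kinases and their partners, 6 were called higher and 1 lower, with a median of 0.28, beside 29.5% and 23.7% of all genes. Map3k14, which encodes NIK, went from 2.71 to 2.98 FPKM in the saline group to 5.95 to 10.7 FPKM in the LPS group, a log2 fold change of 1.31 (SE 0.15, limma adjusted p = 5.19e-05). Map3k8, the kinase TPL2 that p105 holds, rose by 1.26, and Tank, an adaptor of Tbk1 and IKKε, by 0.92. Tbk1 rose by 0.31 (SE 0.10, limma adjusted p = 0.0235), while Tbkbp1, another adaptor of Tbk1, fell by 0.45 (limma adjusted p = 0.0251). The Tbk1 call was lost without saline library 2 or 4 (adjusted p of 0.056 and 0.0807), and that of Tbkbp1 without saline library 2, 3 or 4 (adjusted p of 0.0528 to 0.0757).

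Of 17 adaptors and ubiquitin enzymes, 16 were tested, 6 were called higher and 3 lower, with a median of 0.10, which is near the shares of all genes (29.5% and 23.7%). Traf1, an adaptor of TNF receptors, rose by 2.15, Birc3, the ubiquitin ligase cIAP2, by 1.56 and Ube2n, the enzyme Ubc13 for K63 chains, by 0.91. Traf5, an adaptor of the same family, fell by 0.70, Btrc, the ligase that recognises phosphorylated IκB, by 0.51 and Rbck1, a part of the linear chain ligase, by 0.28 (limma adjusted p = 0.0457). The Rbck1 call was lost when any library but saline library 1 or LPS library 2 was left out, at an adjusted p of up to 0.13. Ube2v1 stayed under the filter, at 0.25 to 0.655 FPKM over both groups. Of 11 negative regulators, 7 were called higher and 0 lower, with a median of 0.71, beside the same shares of all genes. Tnip1, a binding partner of A20, rose by 3.33 (limma adjusted p = 2.34e-07), Tnfaip3, which encodes A20, by 2.79 and Zc3h12a, the RNase regnase-1, by 2.43.

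Of 22 known NF-κB target genes, 17 were called higher and 2 lower, with a median of 2.33, beside 29.5% and 23.7% of all genes. Cxcl2, a neutrophil chemokine, rose by 6.08, Ccl2, a monocyte chemokine, by 5.55 and Tnf by 5.11. Cxcl2 stood at 131 FPKM in saline library 1 and at 0.59 to 5.58 FPKM in the other saline libraries, and its log2 fold change was 7.49 without saline library 1, 5.41 without saline library 2 and 5.36 without saline library 4. Ccl2 was read at most 6 times in a saline library, so its fold change is set by the pseudocount. Cx3cl1, the membrane-bound chemokine of ECs, fell by 1.31 (limma adjusted p = 0.00207) and Irf1, a transcription factor of the interferon response, by 0.45 (limma adjusted p = 0.047). The Irf1 call was lost when any library but saline library 1 or LPS library 2 was left out, at an adjusted p of up to 0.138.

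**Figure D4:**
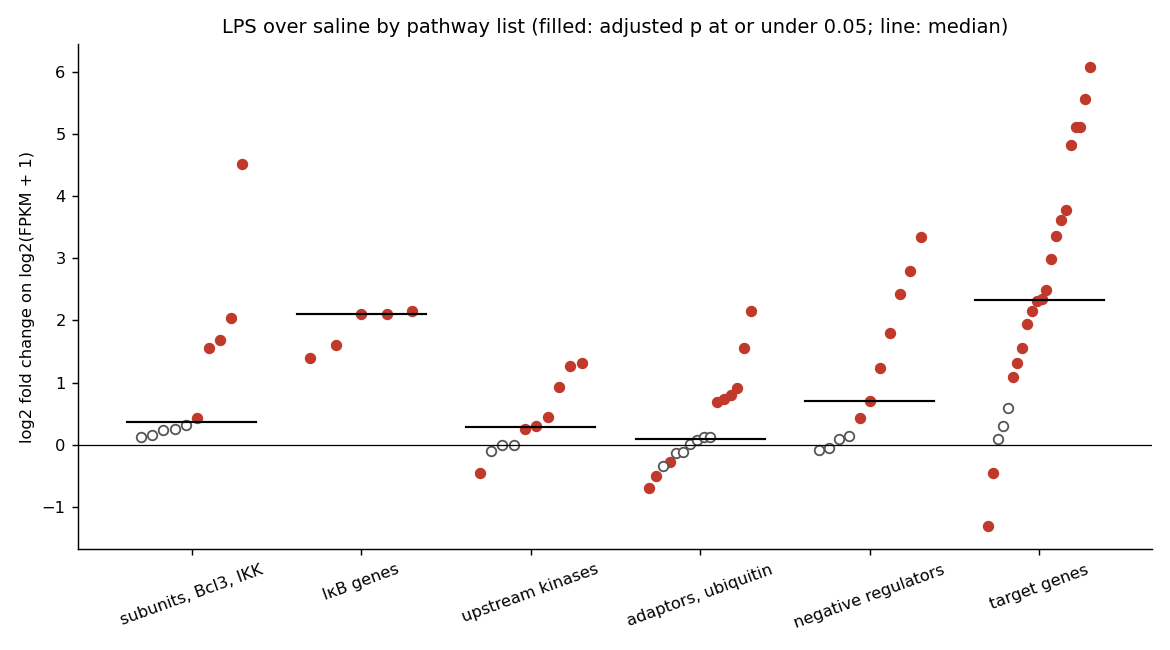
Log2 fold change of the LPS over the saline group on the log2(FPKM + 1) scale (vertical axis) for every tested gene of the members and of the 5 other pathway lists; filled points have a limma adjusted p at or under 0.05, open points do not, and the line is the list median. All 5 IκB genes are filled and above 0, while filled points lie on either side of 0 among the upstream kinases, the adaptors and ubiquitin enzymes, and the target genes.

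The content of the EC fraction was measured with 11 marker lists, since NF-κB genes are also expressed in leukocytes. The gene of CD31, Pecam1, was at 339 to 516 FPKM in the saline group and at 234 to 444 FPKM in the LPS group, and Cdh5, which encodes VE-cadherin, at 669 to 792 and 245 to 520 FPKM, so the fraction carried EC markers in every library. Of the endothelial list, 6 of 11 genes were called lower and 0 higher. Its summed level was 5937, 3527, 4341 and 3667 FPKM in the saline libraries and 1540, 3619.5, 2323, 3609, 2779 and 3376 FPKM in LPS libraries 1 to 6, and its most abundant gene was Cldn5. All 6 leukocyte genes were called higher, with Ptprc, the gene of CD45, at 3.53 to 11.0 FPKM in the saline group and 22.1 to 52.7 FPKM in the LPS group (log2 fold change 2.19, SE 0.28, limma adjusted p = 0.000112). The summed level of the leukocyte list was 238, 150.0, 71.5 and 129.9 FPKM in the saline libraries and 1898, 1607, 1297, 1305, 1441 and 773 FPKM in the LPS libraries, and its most abundant gene was Coro1a. Its genes were at 0 in no library.

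The other lists are given beside the 29.5% of all genes called higher and the 23.7% called lower. Of the macrophage list, 7 of 8 genes were called higher, with Lyz2 the most abundant and a summed level of 372 to 1109 FPKM in the saline group and 1886 to 4102.5 FPKM in the LPS group. Of the neutrophil list, 5 of 9 were called higher, with S100a9 at 37.4 to 799 FPKM in the saline group, where saline library 1 was the highest, and at 757 to 4355 FPKM in the LPS group. Of the dendritic list 1 of 3 tested genes was higher (Itgax the most abundant), of the platelet list 3 of 4 (Pf4) and of the erythroid list 3 of 4 (Hba-a1). Lower calls numbered 3 of 6 in the lymphocyte list (Cd79a the most abundant), 2 of 7 in the epithelial list (Sftpc), 3 of 5 in the fibroblast list (Col3a1) and 1 of 5 in the mural list (Acta2), of which those of the epithelial and mural lists are near the share of all genes. The part of these cell types in the levels of Nfkb2, Relb, Bcl3 and Ikbke was not tested.

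Within the LPS group, the libraries were also set in order by the leukocyte and endothelial lists. The 10 members and 2 lists gave 20 relations over 6 libraries, chosen after the values were seen. Ikbke and the leukocyte list had r = 0.91 (exact permutation p = 0.0167) and rho = 0.83 (exact permutation p = 0.0583), and Ikbke and the endothelial list r = -0.91 (exact permutation p = 0.0194) and rho = -0.94 (exact permutation p = 0.0167). Other members had relations of like size, among them Nfkb1 with the endothelial list at r = -0.93 (exact permutation p = 0.0111) and rho = -0.83 (exact permutation p = 0.0583), the strongest r of the 20. Ikbkg with the endothelial list had r = -0.91 (exact permutation p = 0.0389) and rho = -0.77 (exact permutation p = 0.103). With the leukocyte list, r was 0.87 for Nfkb1 and 0.78 for Nfkb2 (exact permutation p = 0.0389 for each), and rho was 0.71 for each (exact permutation p = 0.136). No relation kept an adjusted p under 0.127 by r or 0.333 by rho. Without the 2 libraries farthest from the median of the list, 4 were left and the range of the list was narrower. In these 4, r for Ikbke was 0.56 with the leukocyte list and -0.59 with the endothelial list. For Nfkb1 it was -0.061 and -0.60. A narrower range can by itself make r smaller, so this cannot show what the relations of Ikbke and Nfkb1 rest on. For Relb and Bcl3 with the leukocyte list r instead rose, from 0.58 to 0.81 and from 0.49 to 0.82. Over all 6 libraries their exact permutation p was 0.197 and 0.253. By the same measure r was -0.80 for Ikbkg with the endothelial list and 0.63 for Nfkb2 with the leukocyte list, and it was -0.89 for Ikbkb with the endothelial list, from -0.79 over all 6 libraries (exact permutation p = 0.0444, rho = -0.66, exact permutation p = 0.175). Rela was the member with the highest r with the endothelial list, at 0.74 (exact permutation p = 0.0639), with rho = 0.77 (exact permutation p = 0.103), and r was 0.97 without those 2 libraries.

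**Figure D5:**
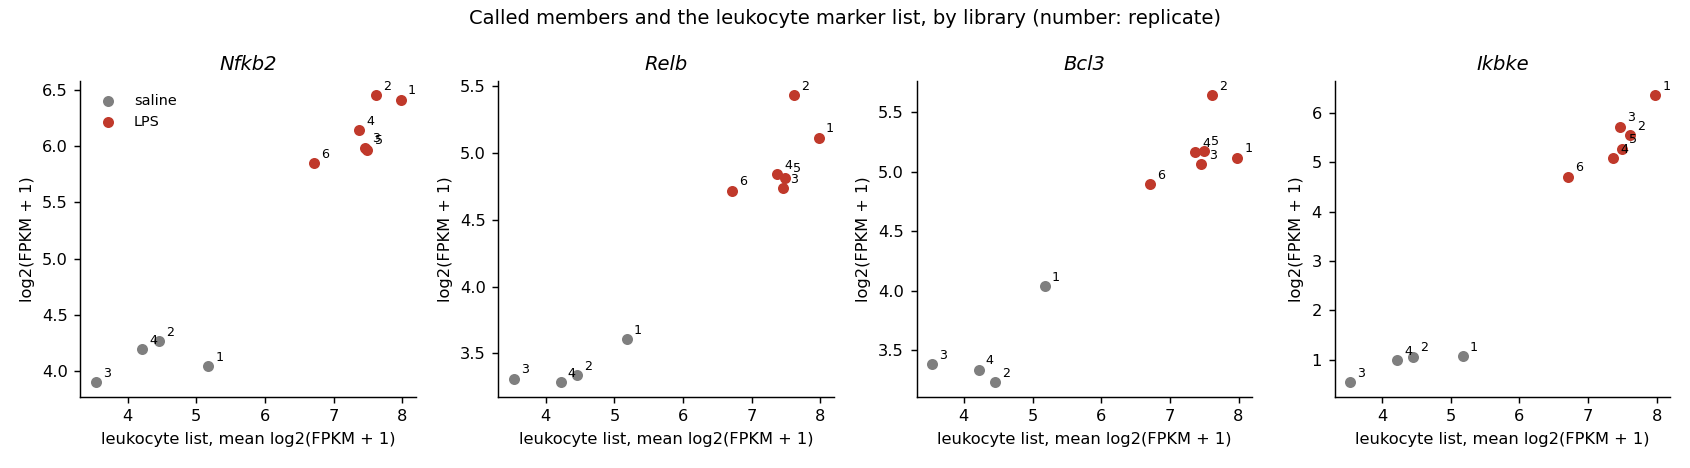
Level of Nfkb2, Relb, Bcl3 and Ikbke, as log2(FPKM + 1) on the vertical axis, against the mean log2(FPKM + 1) of the 6 leukocyte genes on the horizontal axis, for the 4 saline and 6 LPS libraries with their replicate numbers. The saline libraries lie at 3.53 to 5.18 on the leukocyte list and the LPS libraries at 6.71 to 7.98, with no library between; LPS library 1 is at the right end of the list and has the highest Ikbke.

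The genes whose pattern was most like that of each member were found over the 10 libraries, among the 7765 genes whose mean reached 5 FPKM, by Pearson's r of log2(FPKM + 1). Since the saline and LPS libraries form separate clusters, a high r for the members with a large fold change mostly reflects a shared difference between the groups, and each r is a description. Nfkb2 was closest to AA467197 (r = 0.995), Relb to Fth1, the ferritin heavy chain (r = 0.996), Bcl3 to Gm6421 (r = 0.995) and Ikbke to B430306N03Rik (r = 0.997). Nfkb1 was closest to Mark2 (r = 0.971), Rela to Tuba1a (r = 0.985), Rel to Eml4 (r = 0.951), Ikbkb to Ankle2 (r = 0.979), Chuk to Fem1a (r = 0.953) and Ikbkg to Pofut1 (r = 0.952). Among the members themselves the highest r were 0.989 for Nfkb2 and Ikbke, 0.983 for Relb and Bcl3 and 0.982 for Nfkb2 and Relb, and the lowest was -0.27 for Rela and Chuk.

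To examine whether endothelial Fgfr1 bears on these genes under LPS, Fgfr1 iΔEC/iΔEC mice were compared with Fgfr1 loxP/loxP mice, both at 2 mg/kg LPS. Fgfr1 itself, over the whole gene, stood at 2.90, 2.91 and 2.60 FPKM in the Fgfr1 loxP/loxP libraries and at 0.682, 1.41 and 1.15 FPKM in the Fgfr1 iΔEC/iΔEC libraries. The groups did not overlap, and the log2 fold change was -0.88 (SE 0.16, limma adjusted p = 0.962, unadjusted p = 0.00103). None of the 10 members was called in either direction. Of all 14945 genes tested, 0% were called by limma, with 661 genes at an unadjusted p under 0.05 and 608 by limma-voom on the recovered reads, which also called 0. Same-numbered libraries deviated together here, and a fit blocked on the replicate number put 1154 genes at an unadjusted p under 0.05 and called 0. The design of 3 against 3 libraries thus gave no call for Fgfr1 either, and the absence of a call does not show that the members were alike.

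Rela was the only 1 of the 10 members whose groups did not overlap in this comparison. This is near the share of all genes tested, 10.1% in either direction, so it does not set the members apart. Rela stood at 63.2, 58.8 and 48.0 FPKM in the Fgfr1 loxP/loxP libraries and at 69.1, 65.8 and 72.6 FPKM in the Fgfr1 iΔEC/iΔEC libraries, a log2 fold change of 0.29 (SE 0.13, limma adjusted p = 0.962). Between the same groups the mean log2(FPKM + 1) of the lymphocyte list was lower by 0.35, without overlap. The endothelial list differed by 0.26 and the epithelial list by -0.86, and for these and the other marker lists the groups overlapped. The part of these cell types in the value of Rela was not tested. For the other members the ranges of the groups overlapped. Among the members, Chuk and Rela alone were higher in the Fgfr1 iΔEC/iΔEC library of all 3 same-numbered pairs. The share of all genes that were so was not counted, so this is a description only. Nfkb2 stood at 58.1, 65.7 and 50.5 FPKM in the Fgfr1 loxP/loxP libraries and at 50.1, 59.5 and 65.7 FPKM in the Fgfr1 iΔEC/iΔEC libraries, a log2 fold change of 0.0075 (SE 0.15). Ikbke stood at 18.9, 25.8 and 32.7 FPKM and at 12.4, 29.2 and 21.3 FPKM, a log2 fold change of -0.33 (SE 0.33), with the lowest value in Fgfr1 iΔEC/iΔEC library 1. That library was also the lowest on the leukocyte list, at a summed level of 342 FPKM against 456 to 782 FPKM in the other 5 libraries, and the part of leukocytes in the value was not tested.

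None of the remaining members passed the test. The log2 fold changes were 0.14 (SE 0.16) for Relb, 0.28 (SE 0.29) for Bcl3, 0.045 (SE 0.13) for Nfkb1, -0.072 (SE 0.22) for Rel, 0.084 (SE 0.09) for Ikbkb, 0.12 (SE 0.10) for Chuk and 0.0024 (SE 0.09) for Ikbkg. Bcl3 had the widest spread, at 34.4, 33.1 and 20.2 FPKM in the Fgfr1 loxP/loxP libraries and 27.0, 31.0 and 50.8 FPKM in the Fgfr1 iΔEC/iΔEC libraries. None of the 7 ratios passed the test, and 3 against 3 libraries cannot go under an exact permutation p of 0.1. The largest differences were -0.60 for Ikbke to Tbk1 and -0.38 for Rel to Rela on the log2 scale (exact permutation p = 0.3 and 0.5, adjusted p = 0.817).

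The make-up of the classes at 2 mg/kg LPS is given beside that of the first experiment without a comparison, since dose, genotype and normalisation differed. Nfkb2 held 35.3% ± 2.65 of the subunit sum in the Fgfr1 loxP/loxP group and 32.4% ± 1.75 in the Fgfr1 iΔEC/iΔEC group (SD, n = 3). Rela held 34.4% ± 2.19 and 38.7% ± 3.09. Ikbke held 49.3% ± 5.85 and 42.0% ± 9.51 of the kinase sum. By same-numbered pair, with the Fgfr1 loxP/loxP library first, the Ikbke share was 42.9 and 31.6%, 50.8 and 50.3%, and 54.3 and 44.0%. That of Rela was 36.6 and 42.2%, 34.4 and 36.3%, and 32.3 and 37.6%. The Ikbke share was thus lower and the Rela share higher in the Fgfr1 iΔEC/iΔEC library of every pair, while that of Nfkb2 went both ways. The shares of Chuk and Ikbkb were also higher in the Fgfr1 iΔEC/iΔEC library of every pair. Shares of a sum constrain each other, and the FPKM of Ikbke itself was higher in that library in 1 of the 3 pairs. How often 3 pairs go the same way over all genes was not counted. These differences in share were not tested.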

How the data were processed

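The authors aligned reads with HISAT2 (2.0.5) to GRCm38/mm10, counted them on genes with featureCounts (1.5.0-p3) and deposited FPKM with gene lengths. Strand, annotation release and the handling of reads with several alignments are not given in the sources used here. The deposited FPKM correspond to whole reads for 100.0% of values (within 0.05 reads) and already carried median-of-ratios library sizes. Groups were compared per table on the scaled log2(FPKM + 1) values by limma 3.58.1 (R 4.3.3, lmFit, eBayes with trend), for genes whose mean reached 0.5 FPKM and without a limit on the fold change. Ratios were tested with scipy 1.17.1. The model was also run on simulated data, and no result given here rests on that run. In the second experiment same-numbered libraries deviated together (r = 0.248, 0.178 and 0.187), and blocking on the number changed no call there. No library was a copy of another. The members and lists were chosen with earlier results of these data known. Named besides the members were up to 3 called genes with the largest rise and fall per pathway list, Nfkbia, Tnfaip3, Tbk1, Map3k14, the check genes, the most abundant gene per marker list and the most similar gene per member. Precision at low values is set by the reads, which are not independent molecules.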

Additional observations from a re-analysis of the deposited data

Results flagged for a closer look

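Of 88 groups of named values examined for a library far from its others, 15 stood out. The chance rate is about 1 in 20 for independent groups. These are not independent, since they share libraries and genes, so 15 is not a count of separate results. Saline library 1 accounts for 9 of them, as the highest of its group. Its values were 15.4 FPKM for Bcl3 (others 8.38 to 9.43), 11.2 FPKM for Relb (others 8.74 to 9.10), 693 FPKM for Nfkbia (others 132 to 147), 23.0 FPKM for Nfkbiz (others 3.94 to 4.58), 19.8 FPKM for Tnfaip3 (others 4.34 to 4.99), 131 FPKM for Cxcl2 (others 0.59 to 5.58), 9.90 FPKM for Map3k8 (others 7.79 to 7.83), 5.52 FPKM for Fgfr1 (others 2.82 to 3.17) and a log2 ratio of 3.44 for Nfkbia to Rela (others 1.29 to 1.49). Nfkb2 and Ikbke did not stand out in this library, at 15.5 and 1.11 FPKM. It also had the fewest reads, 13478726, and the highest neutrophil list of its group, at a summed 1408 FPKM against 77.1 to 313 FPKM. The part of these in its values was not tested.

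Other saline libraries stood out in Ikbkg, where saline library 4 was the lowest at 5.01 FPKM (others 5.56 to 5.65), and in Ikbke to Tbk1, where saline library 3 was the lowest at a log2 ratio of -5.85 (others -4.59 to -4.56). In the LPS group, library 2 was the highest in Bcl3 at 48.9 FPKM (others 28.7 to 35.2) and in Rbck1 at 37.1 FPKM (others 28.1 to 30.3). LPS library 1 was the highest in Tank at 12.9 FPKM (others 8.19 to 9.86) and in Tnfaip3 at 108 FPKM (others 39.0 to 62.9).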

How the results depend on the processing

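Nfkb2, Relb, Bcl3 and Ikbke kept their direction and call in the LPS comparison under every alternative run, including each left-out library and the joint removal of saline libraries 1 and 3, an alternative added after the data were seen. Leaving out a library each time gave 4 to 5 members called higher and 0 lower, and 3815 to 4606 genes higher and 2890 to 3766 lower. Nfkb1 lost its call with no filter on low values (adjusted p = 0.0696), on total reads (0.278), under quantile normalization (0.651), with the replicate number as a block (0.0688) and without saline libraries 1 and 3 (0.189). Scaling on the endothelial list moved the median of all genes to 0.60, and 9 members (all but Rel, with Rela at 0.99, Ikbkb at 0.84, Chuk at 0.96 and Ikbkg at 0.78), 7472 genes higher and 735 lower were called; the cause was not tested. With a fold limit 1768 genes were higher and 1011 lower, by the construction of the limit. Scaling on total reads moved the median to -0.14 and called 3462 genes higher and 4668 lower, and quantile normalization 3666 and 4161, with 1 member called lower, Rela at -0.27. Limma-voom called 4386 and 3629 genes. On total reads Ikbkb came to -0.016 and Ikbkg to -0.046. In the first experiment same-numbered libraries did not deviate together (r = 0.097, -0.162, -0.209 and -0.117), and the replicate block called 3438 genes higher and 2561 lower and 4 members.

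In the Fgfr1 iΔEC/iΔEC comparison 0 genes were called by limma under any alternative, leave-one-out included. Scaling on the endothelial list turned Nfkb1 to -0.20, Nfkb2 to -0.25, Relb to -0.11, Ikbkb to -0.14, Chuk to -0.13 and Ikbkg to -0.22. On total reads Nfkb1 came to -0.019, Nfkb2 to -0.059 and Ikbkg to -0.054, and under quantile normalization Nfkb2 to -0.021. Leaving out a library each time, the log2 fold change ran from -0.033 to 0.15 for Nfkb1, from -0.087 to 0.11 for Nfkb2, from -0.24 to 0.098 for Rel and from -0.013 to 0.027 for Ikbkg.

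Leaving out a library each time, the log2 ratios of the LPS comparison differed by 1.57 to 1.73 (Nfkb2 to Nfkb1), 1.34 to 1.47 (Relb to Rela), 4.98 to 5.44 (Ikbke to Tbk1), 1.18 to 1.62 (Bcl3 to Nfkb1), 0.96 to 1.67 (Nfkbia to Rela), -0.10 to 0.35 (Rel to Rela) and -0.21 to 0.082 (Ikbkb to Chuk). Without a saline library the first 3 were at the smallest exact p of the design (0.0238), which adjusts to 0.0556 without saline library 2, 3 or 4, where 3 ratios reach it, and to 0.0333 without saline library 1, where 5 do. Bcl3 to Nfkb1 passed without saline library 1 (0.0333) or LPS library 1 (0.0278) and missed in the other 8 cases, at up to 0.0833; the cause was not tested. In the other comparison the ranges were -0.25 to 0.14 (Nfkb2 to Nfkb1), -0.11 to 0.44 (Bcl3 to Nfkb1), -0.084 to 0.021 (Ikbkb to Chuk) and -0.21 to 0.00013 (Nfkbia to Rela). Differences within same-numbered pairs (the replicate block) and a pseudocount on both genes turned no ratio, though 4 pairs cannot go under an exact p of 0.125. Depth limits Ikbke in the saline group, which rests on 74 to 219 reads.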

Other observations

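LPS libraries 1 and 3 shared an order of the members, noticed after the values were seen. They held the highest values of their group for Nfkb1 (32.0 and 25.9 FPKM, others 18.1 to 22.1), Rel (11.3 and 8.47 FPKM, others 4.39 to 5.68), Chuk (17.3 and 18.5 FPKM, others 11.2 to 15.4), Ikbkb (9.99 and 9.61 FPKM, others 7.10 to 8.14) and Ikbkg (7.90 and 6.65 FPKM, others 5.05 to 5.89), and the lowest for Rela (58.3 and 57.6 FPKM, others 62.5 to 75.8). Genes with at least 1 read numbered 24656 and 24972 in these libraries and 20676 to 23527 in the other 4. LPS libraries 1 and 3 were also the lowest on the endothelial list, at a summed 1540 and 2323 FPKM against 2779 to 3619.5 FPKM. The part of either in the order was not tested.

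The κB consensus was also found before the start sites of 3 of the 4 IκB genes that have a window. The stretch of Nfkbia lies at chr12:55492657-55492686 on the minus strand, and that of Nfkbie at chr17:45555584-45555613 on the plus strand (GRCm38.p6, capitals mark the match).
Nfkbia: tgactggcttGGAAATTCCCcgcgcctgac
Nfkbie: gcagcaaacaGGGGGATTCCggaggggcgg
The third is Nfkbid. Of the other lists, 7 of 16 target genes with a window held a match, 4 of 9 negative regulators, 3 of 8 upstream kinases and 1 of 14 adaptors and ubiquitin enzymes, beside 8.23% of all genes.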
